A study of Mus musculus with 2 samples.

Results

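The Hedgehog pathway genes described here are Dhh, Ptch1, Smo, Hhip, Gli1, Gli2, Gli3, Sufu and Gas1, and they were taken by gene symbol: 9 of the 32285 genes in the count matrix, each found in 1 row. They were followed in nuclei of whole mouse testes at embryonic day E14.5. The embryos came from mating homozygous Nr5a1-cre mice to Rosa-tdTomato females, also homozygous, so that every nucleus has the same genotype, a Cre transgene driven by Nr5a1 regulatory sequence and a Cre-dependent red reporter, and there is no untreated or control group. RNA and open chromatin were read from the same nuclei with the 10x multiome assay, in 1 RNA library and 1 chromatin accessibility (ATAC) library, and the sources used here do not give the number of embryos pooled. With 1 library of each kind there is no replicate spread and no test between animals, so every interval below is a 95% interval for counting error alone.

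Hedgehog ligands are secreted proteins that act on neighbouring cells. Without ligand, the receptor Ptch1 holds the membrane protein Smo inactive. With ligand, Smo is released and the Gli transcription factors switch on target genes, among them Gli1, Ptch1 and Hhip, which is why RNA of these target genes is commonly read as a sign of a responding cell. In the fetal testis the ligand is Desert hedgehog, the product of Dhh, known as a Sertoli cell product that acts on interstitial cells, among which fetal Leydig cells and peritubular myoid cells form. Hhip binds and sequesters the ligand, Gas1 is a membrane co-receptor, Sufu restrains Gli proteins, Gli2 is mostly an activator and Gli3 mostly a repressor.

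The matrix held 9833 barcodes, all with RNA and ATAC counts. Quality limits left 7668 and the doublets ranked highest were removed, which kept 7198 nuclei with a median of 7948 UMIs (unique molecular identifiers, each standing for 1 captured RNA molecule). Clusters were made without the RNA of the Hedgehog genes and without the 146 peaks within 50 kb of them, and were called X-like from fixed marker genes. There were 834 Sertoli-like, 794 Leydig-like and 973 germ-like nuclei, 562 surface epithelium-like and 396 mesonephric mesenchyme-like nuclei, and smaller pericyte-, endothelial-, supporting-, immune- and erythroid-like groups of 46 to 95 nuclei. The progenitor-like cycling cluster and its large neighbour, left unnamed because the contractile marker Myh11 was among its leading genes, were joined as the interstitial clusters, 3275 nuclei. At a finer clustering resolution of 0.6 there were progenitor-like (1513 nuclei), cycling progenitor-like (738) and contractile-like (1077) clusters in their place. The finer clusters do not hold exactly the same nuclei, and Leydig-like nuclei numbered 742 at that resolution.

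The class names fitted their markers for the large groups, with limits. The Sertoli factor Dmrt1 stood at 265 CPM (UMIs of the gene per 1000000 UMIs of the class) in Sertoli-like nuclei and 1.67 in the interstitial clusters, but also at 175 in germ-like nuclei, which use it too. Amh, the Sertoli hormone, was at 71.1 CPM in Sertoli-like nuclei and 34.9 in the interstitial clusters. Of the Sertoli-like nuclei 15.3% lay over the automatic threshold of the doublet caller, and leaving these out lowered all 6 progenitor markers in the Sertoli-like class, their summed level from 321 to 89.0 CPM, with 0 of the 6 at 0. The same sum was 1987 CPM in the interstitial clusters, 359 falling to 119 in germ-like nuclei and 626 falling to 401 in Leydig-like nuclei. Each main value below is therefore followed where it matters by the value in nuclei not over that threshold, a setting chosen after the data were seen. Unlike the clusters, the doublet score was computed with the Hedgehog genes among its genes. Changes in their levels on leaving such nuclei out are thus not independent of the filter. It left out 19.0% of the Leydig-like nuclei, and whether nuclei passing from one class to another were among them was not tested. The part of free RNA and of droplets holding more than 1 nucleus in each level was not tested.

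The sequences below belong to the ligand gene and to the gene for its receptor, and they are referred to again with the accessibility values. The Dhh promoter is shown because Dhh is the ligand and its promoter was more open in Sertoli-like nuclei. It covers the 250 bases before the start, from RefSeq on GRCm38.p6 (the mm10 build), at chr15:98898541-98898790 on the minus strand.
Dhh promoter: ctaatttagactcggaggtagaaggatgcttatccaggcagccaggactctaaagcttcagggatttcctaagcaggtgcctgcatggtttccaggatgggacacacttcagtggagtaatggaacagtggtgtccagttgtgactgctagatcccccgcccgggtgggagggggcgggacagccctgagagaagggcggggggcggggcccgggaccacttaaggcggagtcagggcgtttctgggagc
The next element is an intergenic peak 4183 bases upstream of the Dhh start, at chr15:98902277-98903169. Its middle 200 bases, chr15:98902624-98902823 on the minus strand, read as follows.
Dhh upstream peak: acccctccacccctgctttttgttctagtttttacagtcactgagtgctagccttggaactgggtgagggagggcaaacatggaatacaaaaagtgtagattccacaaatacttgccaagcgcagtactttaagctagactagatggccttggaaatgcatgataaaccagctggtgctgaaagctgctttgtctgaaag
The letters GACCACCCA, a form of the binding motif of Gli factors, were then searched on both strands and are in capitals where found. They lay in 3 of the 16 peaks near Ptch1, each match inside the annotated gene. The distances in the labels run from an internal start, chr13:63565735. Stretches of these 3 peaks are shown because Ptch1 is a usual Gli target, on the minus strand at chr13:63566365-63566513, chr13:63569215-63569363 and chr13:63573455-63573483, the first holding the motif in its reverse complement.
Ptch1 peak at -704: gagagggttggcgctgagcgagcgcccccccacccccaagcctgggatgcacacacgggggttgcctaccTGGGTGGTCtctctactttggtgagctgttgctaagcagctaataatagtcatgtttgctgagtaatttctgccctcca
Ptch1 peak at -3554: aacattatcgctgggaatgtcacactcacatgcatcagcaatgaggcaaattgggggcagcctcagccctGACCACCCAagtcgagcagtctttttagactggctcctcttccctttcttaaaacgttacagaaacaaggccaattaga
Ptch1 peak at -7734: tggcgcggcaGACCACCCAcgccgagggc

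Dhh RNA was concentrated in Sertoli-like nuclei. The 834 Sertoli-like nuclei held 458 Dhh UMIs, a level of 46.1 CPM (95% Poisson interval 42.0 to 50.5), and 39.9% of them had at least 1. The interstitial clusters stood at 4.23 CPM (3.44 to 5.13), so the Sertoli-like level was 10.9 times as high (8.78 to 13.7, exact conditional binomial interval), and 12.95 times without nuclei over the doublet threshold. Every other class lay below the Sertoli-like interval. The next in order was the supporting-like class at 12.6 CPM (6.87 to 21.1), a group of 87 nuclei in which the supporting cell genes Pax8, Wnt4 and Krt18 were used as markers, and without nuclei over the threshold it was at 6.0 CPM (1.64 to 15.4), an interval that overlaps that of the interstitial clusters.

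Germ-like nuclei stood at 5.56 CPM of Dhh, and at 2.35 CPM without nuclei over the threshold. Endothelial-like nuclei had 5.59 CPM and immune-like nuclei 7.32 CPM, and both were at 0 UMIs without nuclei over the threshold. Leydig-like nuclei had 2.73 CPM (1.75 to 4.06), surface epithelium-like nuclei 2.18 CPM and mesonephric mesenchyme-like nuclei 2.24 CPM, and neighbours in this order overlapped in their intervals. When each nucleus was thinned to 2000 UMIs, 10.3% of Sertoli-like nuclei (8.36% to 12.6%, exact binomial interval) and 0.745% of interstitial nuclei (0.478% to 1.11%) kept a Dhh UMI. Among nuclei not over the threshold the thinned share was 0.718% in the interstitial clusters (0.451% to 1.09%), and the count in germ-like nuclei was 0 of 743 (upper limit 0.495%). The levels of these nuclei were 4.01 CPM in the interstitial clusters (3.21 to 4.95), 3.05 in Leydig-like nuclei (1.81 to 4.82) and 2.35 in germ-like nuclei (1.54 to 3.44). Counted per nucleus without thinning, nuclei not over the threshold held 0.517 Dhh UMIs in the Sertoli-like class, 0.0276 in the interstitial clusters (0.0221 to 0.0341), 0.0280 in Leydig-like nuclei (0.0166 to 0.0442) and 0.0349 in germ-like nuclei (0.0228 to 0.0511). Germ-like nuclei, not known as a source of Dhh, were deeper, with a median of 14058 UMIs against 6246 in the interstitial clusters. Relative to them the interstitial clusters were thus higher by CPM and by thinned share, though with intervals that overlap for both, and not higher per nucleus. The part of free RNA in these low levels was not tested.

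Dhh also differed inside the Sertoli-like class. The 229 cycling Sertoli-like nuclei stood at 36.0 CPM and the other 605 at 52.5 CPM, a ratio of 0.686 (0.558 to 0.840). Of the cycling nuclei 27.5% lay over the doublet threshold and of the others 10.7%, and without those nuclei the ratio was 0.746. Part of the Dhh locus (mm10, ENSMUSG00000023000, chr15:98891152-98898540, minus strand) shares its strand with a span of Rhebl1, and UMIs from the shared stretch cannot be told apart.

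**Figure D1:**
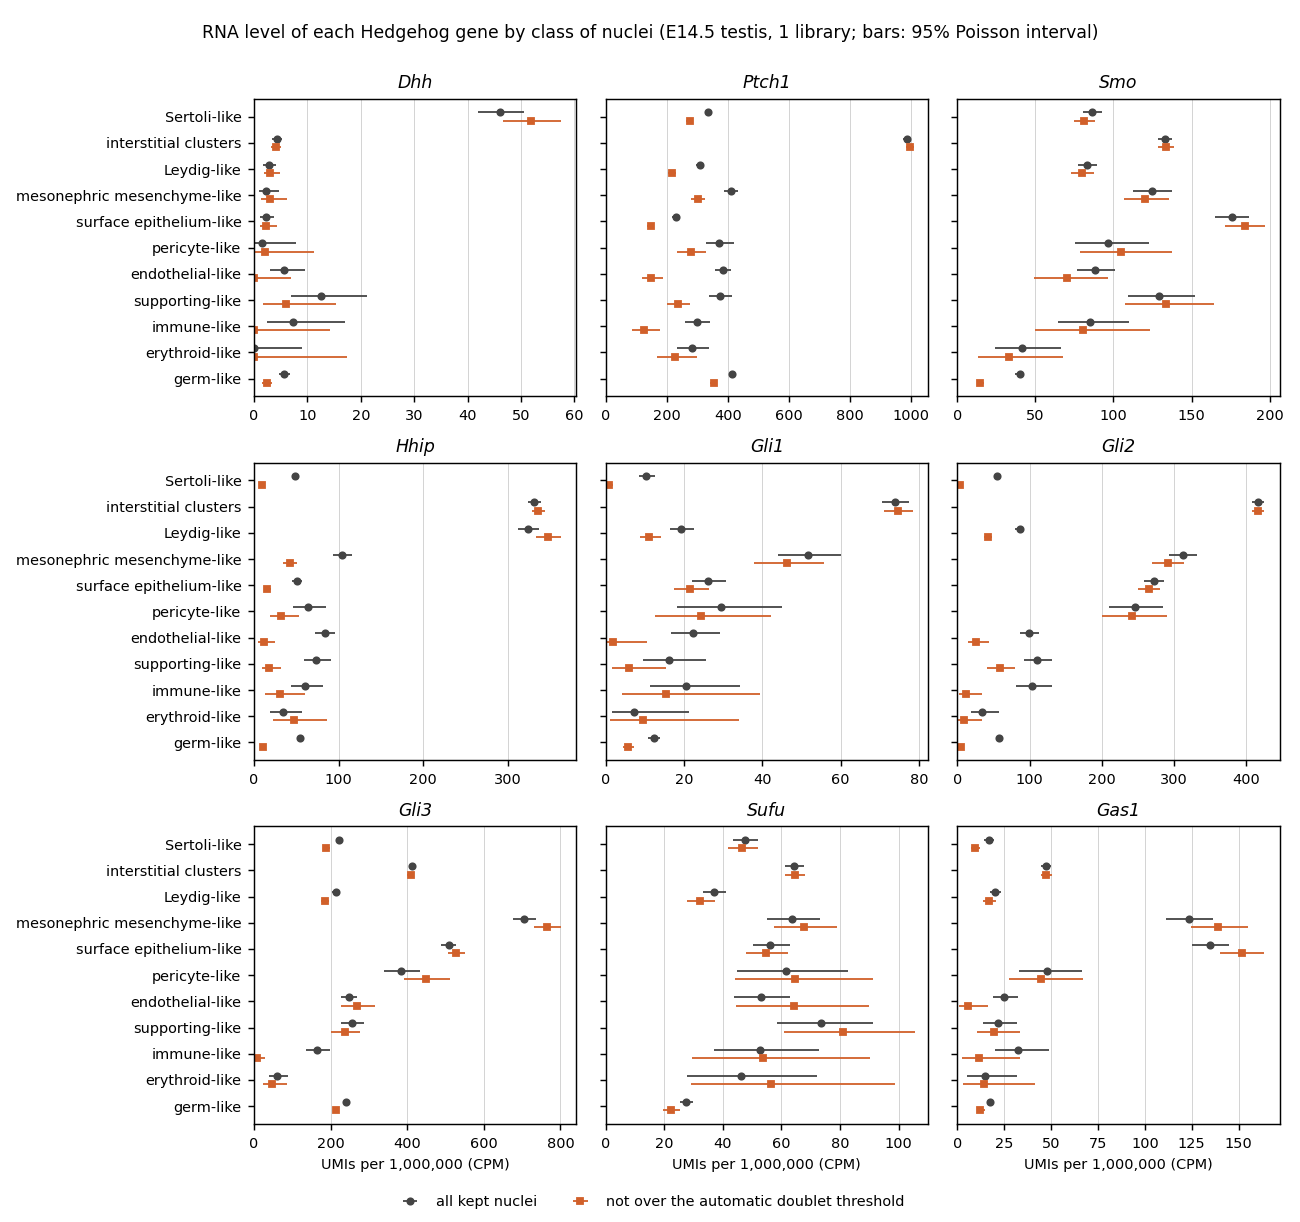
Level of each Hedgehog gene (CPM, linear axes from 0) in 11 classes of nuclei, with 95% Poisson intervals, for all kept nuclei and for nuclei not over the automatic doublet threshold. Dhh stands apart in Sertoli-like nuclei at 46.1 CPM, Ptch1 in the interstitial clusters at 987 CPM, and Gli1, Gli2 and Hhip drop toward 0 in Sertoli-like and germ-like nuclei once nuclei over the threshold are left out.

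Ptch1, the receptor and a target of the pathway, was highest in the interstitial clusters. Its level there was 987 CPM (974 to 999), against 335 in Sertoli-like, 308 in Leydig-like and 413 in germ-like nuclei. The interstitial level was 2.94 times the Sertoli-like one (2.84 to 3.05) and 3.20 times the Leydig-like one (3.08 to 3.33). Without nuclei over the doublet threshold these ratios were 3.63 and 4.60 respectively. The order below the interstitial clusters depended on those nuclei. Germ-like nuclei then stood at 354 CPM (343 to 365), mesonephric mesenchyme-like at 303, Sertoli-like at 275 (263 to 287), Leydig-like at 217 (205 to 229) and surface epithelium-like at 148 (136 to 159). After thinning to 2000 UMIs, 68.6% of the interstitial nuclei not over the threshold had a Ptch1 UMI, against 48.7% of germ-like nuclei and 35.3% of Sertoli-like nuclei.

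Relative to Gli2, Ptch1 UMIs were more numerous in germ-like and Sertoli-like nuclei than in the interstitial clusters. In nuclei not over the threshold, Ptch1 UMIs numbered 2.39 for each Gli2 UMI in the interstitial clusters (2.34 to 2.45), 75.3 in germ-like nuclei (57.3 to 101) and 66.6 in Sertoli-like nuclei (46.2 to 99.7). Gli3 behaved alike, with 0.983 UMIs for each Gli2 UMI in the interstitial clusters, 45.4 in germ-like and 45.8 in Sertoli-like nuclei. Smo UMIs numbered 0.321 for each Gli2 UMI in the interstitial clusters, 19.7 in Sertoli-like nuclei (13.5 to 29.6) and 3.15 in germ-like nuclei (2.30 to 4.40). Gli1 UMIs numbered 0.207 for each Gli2 UMI in Sertoli-like nuclei (0.0702 to 0.507), an interval that holds the interstitial 0.179, and 1.21 in germ-like nuclei (0.826 to 1.78). Ptch1 and Gli3 UMIs numbered 1931 and 1327 in Sertoli-like nuclei, 3917 and 2359 in germ-like nuclei and 21376 and 8776 in the interstitial clusters. The part of RNA carried over from other nuclei was not tested. Germ-like nuclei formed 2 clusters at the finer resolution with nuclei not over the threshold, and they had 368 and 329 CPM of Ptch1 but 6.36 and 4.52 CPM of Gli1. Their Gli2 levels were 4.38 and 5.28 CPM, beside 416 in the interstitial clusters. Part of the Ptch1 gene (ENSMUSG00000021466, chr13:63508328-63573598, minus strand) shares a strand with A930032L01Rik, so UMIs there cannot be assigned to either.

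Smo, the membrane transducer (ENSMUSG00000001761, chr6:29735503-29761365, plus strand), was found in every class. Surface epithelium-like nuclei were highest at 176 CPM (165 to 187), followed by the interstitial clusters at 133, supporting-like nuclei at 129 and mesonephric mesenchyme-like nuclei at 124, whose intervals overlap. Sertoli-like nuclei had 86.5 CPM and Leydig-like nuclei 83.3, with overlapping intervals, and germ-like nuclei had 39.9. Without nuclei over the threshold the germ-like level was 14.8 CPM (12.6 to 17.3), the lowest of the 11 classes. Part of the Smo gene shares its strand with Gm13717, and UMIs there cannot be assigned to either. Gas1, the co-receptor (ENSMUSG00000052957, chr13:60174405-60177365, minus strand), was highest in the classes named for tissue at the testis margin: 135 CPM in surface epithelium-like (125 to 145) and 123 in mesonephric mesenchyme-like nuclei, against 47.1 in the interstitial clusters, 20.4 in Leydig-like and 16.8 in Sertoli-like nuclei.

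Hhip, the decoy that binds the ligand (ENSMUSG00000064325, chr8:79965851-80058006, minus strand), had like levels in the joined interstitial clusters and in Leydig-like nuclei. The interstitial clusters stood at 331 CPM (324 to 339) and Leydig-like nuclei at 324 CPM (312 to 336), and the ratio was 1.02 (0.979 to 1.07). Without nuclei over the doublet threshold it was 0.966 (0.920 to 1.02), on the other side of 1. The finer clusters differ, and progenitor-like nuclei were 1.33 times the Leydig-like level (1.27 to 1.40), or 1.26 times without nuclei over the threshold. The Leydig-like class here is that of the coarser clustering, and nuclei that lie in both groups were not counted. Mesonephric mesenchyme-like nuclei had 104 CPM, and 42.0 without nuclei over the threshold. In Sertoli-like nuclei Hhip fell from 48.4 to 8.82 CPM and in germ-like nuclei from 53.7 to 10.5 CPM when those nuclei were left out. The other genes of the list were all higher in the interstitial clusters than in Leydig-like nuclei, Dhh excepted, whose interval included 1.

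Gli1, whose RNA is itself a common readout of the pathway (ENSMUSG00000025407, chr10:127329882-127341974, minus strand), was at 73.9 CPM (70.5 to 77.5) in the interstitial clusters, and at 51.6 CPM in mesonephric mesenchyme-like nuclei. Leydig-like nuclei had 19.3 CPM, and the interstitial level was 3.82 times that (3.26 to 4.50). Without nuclei over the doublet threshold the Leydig-like level was 11.2 CPM and the ratio 6.68 (5.22 to 8.68). Sertoli-like nuclei had 10.4 CPM, of which 94.2% of the UMIs lay in nuclei over the threshold, and the 706 other Sertoli-like nuclei held 6 Gli1 UMIs, or 0.853 CPM.

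Gli2 (ENSMUSG00000048402, chr1:118834132-119053619, minus strand) had a similar order, 416 CPM in the interstitial clusters, 312 in mesonephric mesenchyme-like, 272 in surface epithelium-like and 245 in pericyte-like nuclei. Leydig-like nuclei had 86.4 CPM of Gli2, and 42.2 without nuclei over the threshold, which makes the interstitial level 4.82 and 9.87 times as high. In Sertoli-like nuclei the corresponding Gli2 levels were 55.7 and 4.12 CPM. Gli3 (ENSMUSG00000021318, chr13:15463235-15730026, plus strand) was spread differently. It was highest in mesonephric mesenchyme-like nuclei at 705 CPM (676 to 735), then at 508 in surface epithelium-like nuclei and 413 in the interstitial clusters, and it stayed at 189 CPM in Sertoli-like, 185 in Leydig-like and 213 in germ-like nuclei that were not over the threshold. Part of the Gli3 gene shares its strand with Gm48343, and UMIs there cannot be assigned to either. Sufu, the restraint on Gli proteins (ENSMUSG00000025231, chr19:46396896-46488804, plus strand), ranged from 27.6 CPM in germ-like nuclei to 73.6 in supporting-like nuclei, with 64.3 in the interstitial clusters and 47.6 in Sertoli-like nuclei.

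Counted together, the 9 genes leaned to the interstitial side. A gene was called unequal when its levels differed at least 2-fold and both classes together held at least 20 of its UMIs. With 1 library this is a rule of size and no test. Of the 9, Dhh alone was called higher in Sertoli-like nuclei, where 15.4% of the 15996 genes counted were, and 5 (Ptch1, Hhip, Gli1, Gli2 and Gas1) were called higher in the interstitial clusters, where 14.9% of all genes were. The median log2 ratio, Sertoli-like over interstitial, was -1.43 for the 9 genes and 0.09 for all genes. Against Leydig-like nuclei, 4 of the 9 (Ptch1, Gli1, Gli2 and Gas1) were called higher in the interstitial clusters and 0 in Leydig-like nuclei, where the shares of 15860 genes were 16.5% and 13.1%. Their median log2 ratio was 0.95, against -0.01 for all genes. These counts are for all kept nuclei. Without nuclei over the doublet threshold Gli3 also passed 2-fold on the interstitial side, at 2.17 over Sertoli-like and 2.21 over Leydig-like nuclei, and the share of all genes was not counted in that setting.

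**Figure D2:**
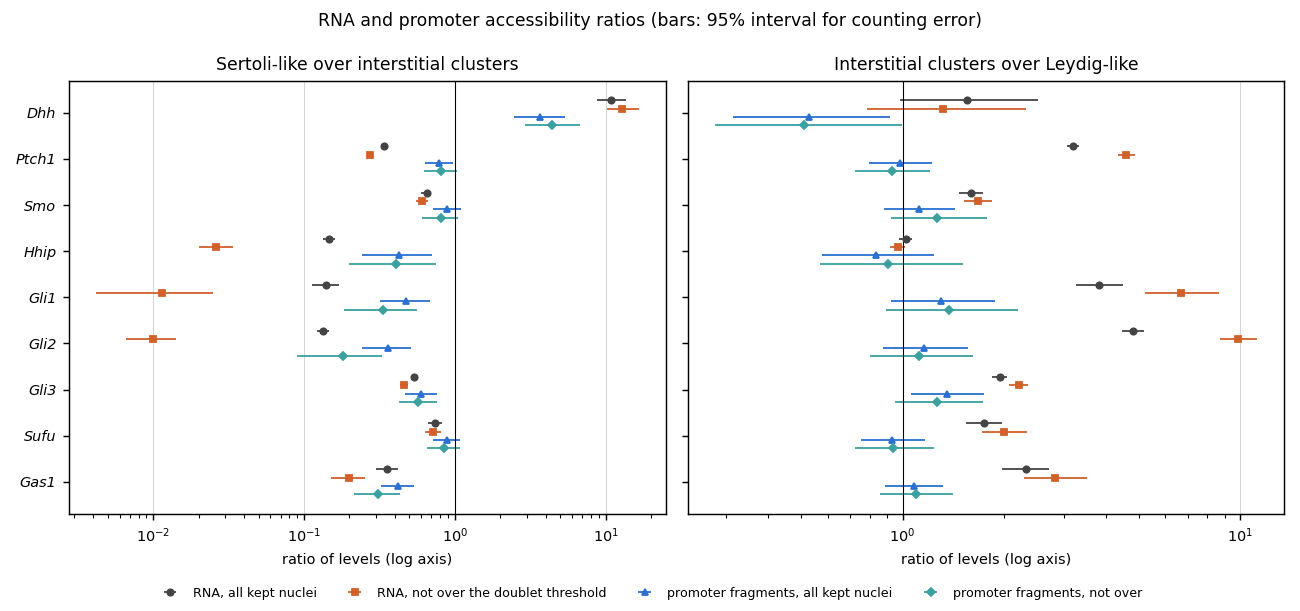
Ratios of RNA level (CPM) and of promoter fragments for the 9 genes, Sertoli-like over interstitial on the left and interstitial over Leydig-like on the right, on log axes with 95% counting intervals. The line marks a ratio of 1. On the right, RNA of Ptch1, Gli1 and Gli2 lies at 3.20 to 4.82 in all kept nuclei while their promoter fragments lie at 0.984 to 1.30.

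Within the interstitial clusters the Hedgehog genes separated the finer clusters in opposite directions. Progenitor-like nuclei were higher in Hhip, 432 against 219 CPM in contractile-like nuclei, a ratio of 1.98 (1.86 to 2.10), and in Ptch1, 1139 against 860 CPM, a ratio of 1.32 (1.28 to 1.37). They were lower in Gli3, 280 against 517 CPM with a ratio of 0.541 (0.515 to 0.569), and in Gas1, 30.8 against 68.5 CPM with a ratio of 0.449 (0.388 to 0.520). Gli1 and Gli2 differed little, at 0.957 (0.854 to 1.07) and 0.954 (0.909 to 1.001). Of the 9, 0 were called higher in progenitor-like nuclei, where 4.7% of 14094 genes were, and 1, Gas1, was called higher in contractile-like nuclei, where 3.92% were. The median log2 ratio of the 9 was -0.07 against -0.02 for all genes.

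Cycling progenitor-like nuclei stood between the others for Hhip, at 317 CPM, and nearer the contractile-like cluster for Ptch1, at 896 CPM. Their Gli3 level, 489 CPM, was 1.75 times that of the progenitor-like cluster (1.66 to 1.84), and their Gas1 level, 48.9 CPM, was 1.59 times (1.36 to 1.85). Gli1 was 70.5 CPM in the cycling cluster, 73.7 in the progenitor-like and 77.0 in the contractile-like cluster, with overlapping intervals. Smo and Sufu were highest in the contractile-like cluster, at 146 and 80.6 CPM. In the cycling cluster 10.98% of nuclei lay over the doublet threshold, in the progenitor-like cluster 1.92% and in the contractile-like cluster 5.01%.

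**Figure D3:**
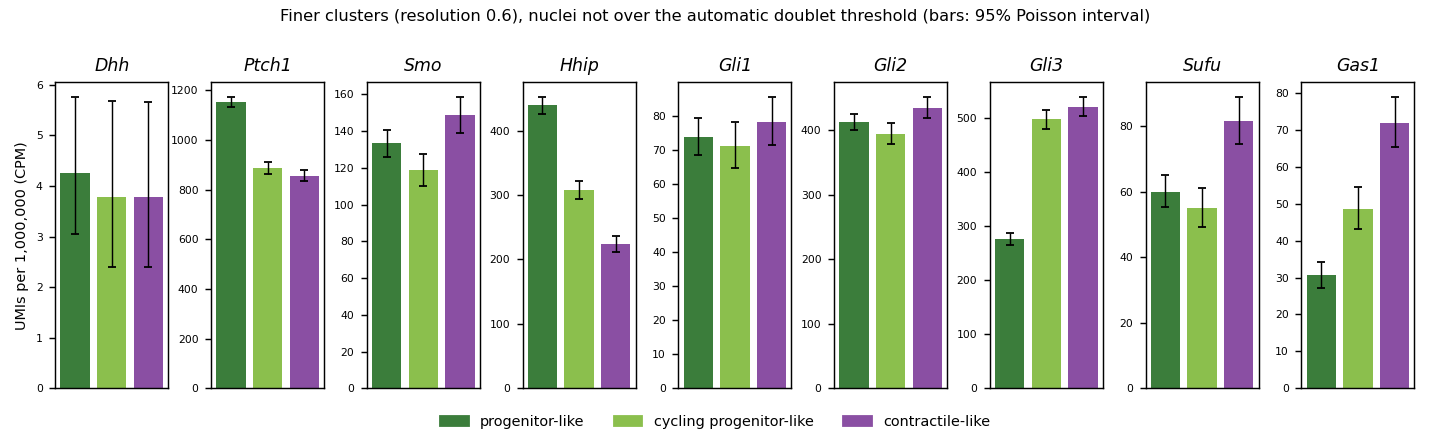
Levels (CPM, each axis from 0) of the 9 genes in the 3 finer interstitial clusters, in nuclei not over the automatic doublet threshold, with 95% Poisson intervals. Hhip and Ptch1 are highest in the progenitor-like cluster, Gas1 and Gli3 lowest there, and the Gli1 intervals of the 3 clusters overlap.

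Most interstitial nuclei had a UMI of at least 1 of the target genes Ptch1, Gli1 and Hhip, and few had all 3. Among interstitial nuclei thinned to 2000 UMIs and not over the doublet threshold (3062 nuclei), 76.8% had a UMI of at least 1 of the 3, 34.3% of at least 2 and 4.51% of all 3. At least 1 was found in 83.9% of progenitor-like, 74.8% of cycling progenitor-like, 68.5% of contractile-like and 53.6% of Leydig-like nuclei, and at least 2 in 40.6%, 32.9%, 26.1% and 15.5%. Sertoli-like nuclei, with 36.6% for at least 1, had 1.14% for at least 2, since nearly all of their UMIs were of Ptch1. Germ-like nuclei had 50.3% and 1.75%.

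Ptch1 was found with Hhip more often than the product of the shares. Ptch1 and Hhip were both found in 27.4% of interstitial nuclei (25.8% to 29.0%), where the product of the shares was 22.5%. In contractile-like nuclei the share was 17.9% (15.5% to 20.4%) against 13.1%. For Ptch1 and Gli1 the interstitial share was 10.9% (9.83% to 12.1%) against 9.75%, but in the finer clusters the intervals included the product, with 11.7% (10.1% to 13.5%) against 10.8% in progenitor-like, 8.84% (6.78% to 11.3%) against 8.09% in cycling progenitor-like and 11.2% (9.28% to 13.3%) against 9.31% in contractile-like nuclei. For Gli1 and Hhip the interstitial share was 5.03% (4.28% to 5.86%) against 4.66%, an interval that includes the product. Ptch1 and Gli3 met less often than the product in the interstitial clusters, 29.9% (28.3% to 31.6%) against 32.0%, and in contractile-like nuclei, but not in progenitor-like nuclei, with 27.01% (24.8% to 29.4%) against 26.9%. Gli2 and Gli3 met at 26.0% against 25.8%. In Sertoli-like nuclei Dhh and Ptch1 met in 4.69% (3.25% to 6.53%), and the product was 4.06%. These shares mix finer clusters of unlike level, as the values within a cluster show.

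In interstitial nuclei with a Gli1 UMI the Ptch1 level was somewhat higher as counted, and the ratio was smaller after thinning. The 1250 nuclei with 1 had 1104 CPM of Ptch1 and the 2025 without had 891, a ratio of 1.24 (1.21 to 1.27). The nuclei with a Gli1 UMI were deeper, with a median of 7152 UMIs against 6019. With each nucleus thinned to 2000 UMIs the ratio was 1.13 (1.06 to 1.21). Thinning also redrew which nuclei had a Gli1 UMI, so the part of depth in the smaller ratio was not tested. The ratio was 1.07 (0.989 to 1.17), an interval that includes 1, in the progenitor-like and cycling progenitor-like clusters together when thinned and without nuclei over the doublet threshold. That value leaves out the contractile-like cluster too, so it differs from 1.13 in more than 1 setting. Over 14877 genes with at least 20 UMIs, the middle 95% of the ratio without thinning ran from 0.711 to 1.35. This range holds the counting error of sparse genes, so it cannot say whether the Ptch1 ratio is unusual. Hhip gave 1.23 (1.17 to 1.28), Gli2 1.05 (1.01 to 1.10), Gli3 0.915 (0.879 to 0.952) and Gas1 0.843 (0.747 to 0.951).

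Without thinning, the ratio differed between the finer clusters in nuclei not over the doublet threshold. For Hhip it was 1.75 in contractile-like nuclei (1.57 to 1.94), 1.50 in cycling progenitor-like nuclei (1.37 to 1.65) and 1.01 in progenitor-like nuclei (0.951 to 1.08), and for Ptch1 1.36, 1.42 and 1.18 in the same order. These values keep the difference in depth, and the thinned Ptch1 ratio of 1.07 given above covers the latter 2 clusters together. The contractile-like value of Hhip lay above the middle 95% of all genes there, 0.590 to 1.55. Among Leydig-like nuclei the 56 with a Gli1 UMI had 570 CPM of Ptch1 and the 587 without had 183, a ratio of 3.11 (2.72 to 3.55), and for Gli2 the ratio was 4.13 (3.09 to 5.48). Both lie above the middle 95% of all genes in that class, 0.283 to 2.76. Depth was not matched in this split. Leydig-like nuclei not over the threshold also kept 401 CPM of summed progenitor markers. The marker level of the 56 nuclei was not measured, and whether they hold interstitial RNA was not tested. A split by Gli3 in contractile-like nuclei went the other way, with Ptch1 at 0.666 (0.624 to 0.711), Hhip at 0.650 (0.572 to 0.739) and Gas1 at 1.61 (1.19 to 2.22) in nuclei with a Gli3 UMI over those without. The range for all genes was 0.537 to 2.14. Such ranges hold the counting error of sparse genes, so a value inside one cannot be called ordinary.

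**Figure D4:**
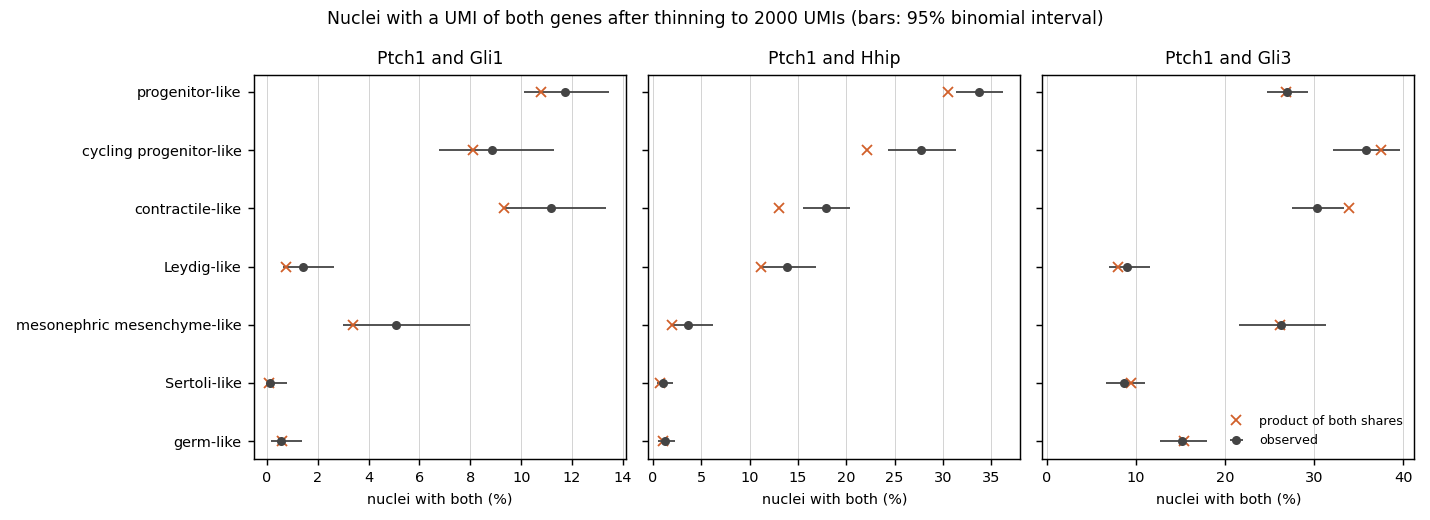
Share of nuclei with a UMI of both genes of a pair (percent, 95% exact binomial intervals) in 7 classes, after thinning to 2000 UMIs and without nuclei over the doublet threshold. Crosses are the product of both shares. Ptch1 with Hhip lies above the product in contractile-like nuclei, 17.9% against 13.1%, and Ptch1 with Gli3 lies below it there, 30.4% against 33.9%, but not in progenitor-like nuclei, 27.01% against 26.9%.

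The Dhh promoter printed above was more open in Sertoli-like nuclei. Within 1 kb of the start, 54 unique ATAC fragments in Sertoli-like nuclei and 56 in the interstitial clusters gave 12.5 and 3.43 fragments per 1000000 fragments of the class (FPM), a ratio of 3.66 (2.47 to 5.42), and 4.43 without nuclei over the doublet threshold. Leydig-like nuclei had 6.48 FPM from 21 fragments and germ-like nuclei 4.39 from 34. Leydig-like nuclei lay above the interstitial clusters here, 1.89 times (1.09 to 3.17), while Dhh RNA was 2.73 CPM in them and 4.23 in the interstitial clusters. Supporting-like nuclei had 18.5 FPM from 10 fragments (8.86 to 34.0), an interval that holds the Sertoli-like value. The upstream peak at -4183 was chosen as the most unequal of 13 peaks within 50 kb, and had 7.20 FPM in Sertoli-like nuclei against 1.41 in the rest, a ratio of 5.09 (3.13 to 8.17).

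Between the interstitial clusters and Leydig-like nuclei, the summed promoter fragments of Ptch1, Gli1 and Gli2 differed less than the RNA. The Ptch1 promoter had 32.2 FPM in the interstitial clusters and 32.7 in Leydig-like nuclei, which is 0.984 times (0.797 to 1.22), while Ptch1 RNA differed 3.20-fold. This even total is a sum over unlike parts of the window. In the bin of 200 bp centred 700 bases upstream, in the peak with the Gli motif, there were 9.60 cuts (ends of unique fragments) per 1000000 in the interstitial clusters and 4.63 in Leydig-like nuclei, while in the bin centred 900 bases downstream there were 0.734 and 4.17. No interval was computed for single bins. For Gli2 the promoter ratio was 1.16 (0.875 to 1.56) beside an RNA ratio of 4.82, and for Gli1 1.30 (0.926 to 1.87) beside 3.82. These ratios hold for the promoter window only. Outside it, the Gli1 peak chosen below as most unequal had 15.2 FPM in the interstitial clusters and 6.17 in Leydig-like nuclei. The peaks chosen in the same way had 12.3 and 3.70 FPM at Gli2, and 3.49 and 1.23 at Ptch1. Sertoli-like nuclei were lower at several promoters: the ratio to the interstitial clusters was 0.359 (0.241 to 0.516) for Gli2, 0.475 (0.318 to 0.687) for Gli1, 0.425 (0.241 to 0.703) for Hhip and 0.419 (0.324 to 0.535) for Gas1. Without nuclei over the doublet threshold these were 0.181 (0.0894 to 0.328) for Gli2, 0.334 (0.184 to 0.562) for Gli1, 0.405 (0.198 to 0.747) for Hhip and 0.312 (0.216 to 0.436) for Gas1, so the Gli2 promoter was low in Sertoli-like nuclei along with its RNA. At Gli3 the ratio in all kept nuclei was 0.601 (0.471 to 0.758), and 0.574 (0.424 to 0.764) without nuclei over the threshold. At Ptch1 it was 0.787 (0.634 to 0.969), and 0.808 (0.626 to 1.03) without them. At Smo and Sufu it was 0.888 (0.713 to 1.10) and 0.884 (0.715 to 1.09) in all kept nuclei, intervals that include 1. Germ-like nuclei kept 32.9 FPM at the Gas1 promoter and 31.7 at Gli3, next to 39.9 and 32.1 in the interstitial clusters, although Gas1 RNA was 17.5 CPM in germ-like nuclei and 47.1 in the interstitial clusters.

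**Figure D5:**
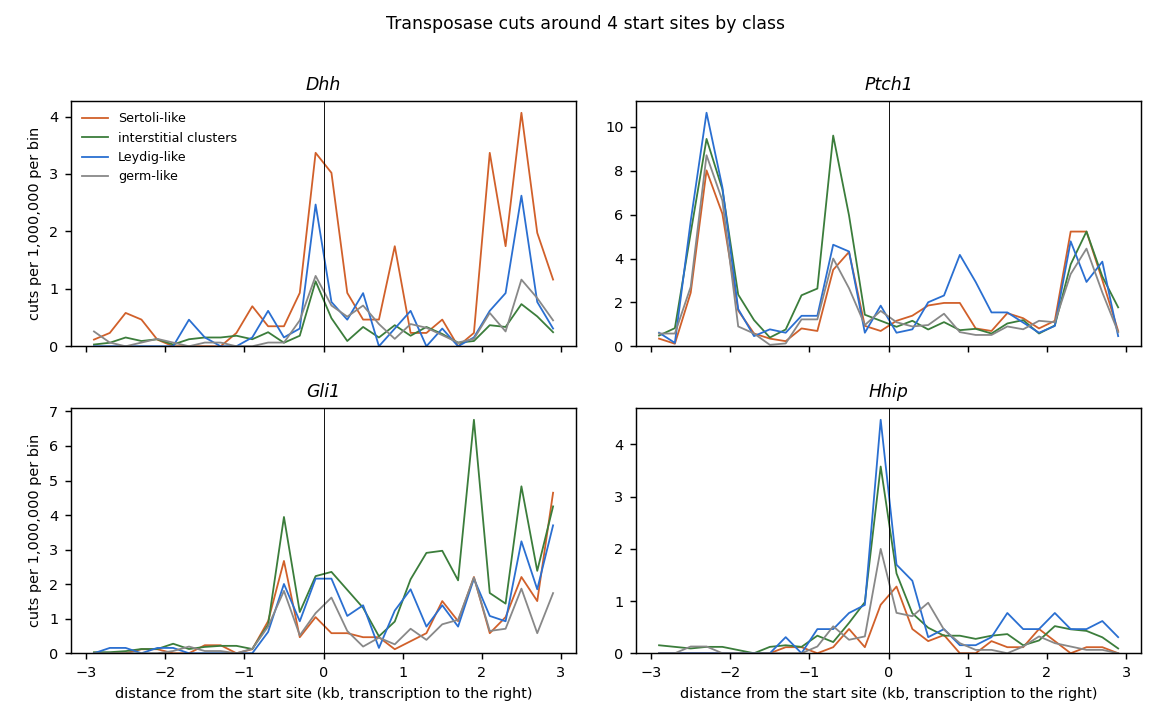
Transposase cuts (ends of unique fragments) per 1000000 in bins of 200 bp, against the distance in kb from the start site, with transcription to the right, for Dhh, Ptch1, Gli1 and Hhip in 4 classes. The Sertoli-like line is highest at the Dhh start. For Ptch1 the distance runs from an internal start, chr13:63565735. The interstitial line is highest of the 4 in the bin centred 700 bases upstream of it, where the intronic peak holding the Gli motif lies.

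Distances at Ptch1 run from the start used here, chr13:63565735, while the annotated gene reaches further upstream, to chr13:63573598. The promoter window of Ptch1 did not cover that end. The peaks with the motif at -704 and -3554 thus lie in introns, and the peak with the motif at -7734 overlaps an exon. The peak with the motif at -704 had 22.0 FPM in the interstitial clusters against 12.7 in the rest, a ratio of 1.74 (1.48 to 2.04). The peak with the motif at -3554 had 6.18 against 2.19, a ratio of 2.82 (1.98 to 4.06), and the peak with the motif at -7734 had 9.60 against 5.25, a ratio of 1.83 (1.43 to 2.35). The other promoter peak of Ptch1, 2554 bases downstream of the start used, was nearly even at 1.07 (0.905 to 1.27). It was counted as a promoter peak because the starts given for Ptch1 span chr13:63564535-63565735, and the window reaches 1 kb beyond both. GACCACCCA was found in 1.06% of 109183 peaks of a median length of 891 bases, in 0.253% of 32851 RefSeq promoter windows of 300 bases, and in 4 of the 146 peaks near the 9 genes, 3 at Ptch1 and 1 at Smo. None of the 8 promoter windows of the Hedgehog genes held it. All 8 lay above the median of all windows in G and C, at 56.3% (Sufu) to 76.3% (Ptch1) against 52.7%. They held 12 to 47 CpG, where the median was 7. The upper quartiles of all windows were 61.7% and 20 CpG. Sufu lay below the first, and Dhh, Smo, Sufu and Gas1 below the second.

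Away from the promoters, the most unequal peak near each gene was taken by a fixed rule, and for Hhip and Gli2 it lay in an intron. The most unequal Hhip peak lay 45678 bases downstream of the start, in an intron at chr8:80011906-80012750, with 7.10 FPM in the interstitial clusters and 1.46 in the rest, a ratio of 4.85 (3.26 to 7.42). Its level in Leydig-like nuclei was 2.16, where the ratio of Hhip RNA between these classes was 1.02. A stretch of 200 bases of that peak, chr8:80012269-80012468 on the minus strand, is shown because it holds CAAGGTCA, a form of the NR5A1 motif. The paper describes motifs of several nuclear receptors as alike, and which factor binds here was not tested. The stretch was centred on the motif (in capitals, here as its reverse complement) and not on the peak. CAAGGTCA was found on either strand in 10.99% of all peaks, in 1.56% of the promoter windows and in 15 of the 146 peaks near the 9 genes.
Hhip intronic peak: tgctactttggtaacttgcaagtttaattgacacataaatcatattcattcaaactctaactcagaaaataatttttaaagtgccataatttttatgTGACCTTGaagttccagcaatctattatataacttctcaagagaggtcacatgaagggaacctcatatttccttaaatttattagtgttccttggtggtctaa
For Gli2 the most unequal peak was in an intron at chr1:118988122-118989029, with 12.3 FPM against 3.24, a ratio of 3.79 (2.88 to 5.04). For Gli1 it was a peak 1670 bases into the gene at chr10:127339930-127340677, overlapping an exon, with 15.2 against 6.62 and a ratio of 2.29 (1.86 to 2.83). Ratios of the peaks chosen for Smo, Gli3, Sufu, Gas1 and Ptch1 ran from 2.53 to 3.18. Since each was chosen as the most unequal of its gene, these values are descriptions.

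The other genes of the pathway were taken from a list of 30 and are given by role. Against the interstitial clusters, Sertoli-like nuclei were called higher in 2 of the 25 with enough UMIs and lower in 9, where the shares of all 15996 genes were 15.4% and 14.9%. By role, 0 of 5 ligands and release factors were higher and 2 lower, 0 of 4 receptors and co-receptors were higher and 3 lower, 0 of 11 cilium and transduction genes were higher and 3 lower, and of 5 often described targets 2 were higher and 1 lower. The highest ratios were those of the growth regulators Mycn, 9.76 against 3.22 CPM (3.03, 2.22 to 4.14), and Ccnd2 (2.01), and of the cilium gene Iqce (1.62, under the 2-fold rule). Among the lowest were the transcription factor Osr1 (0.139) and the co-receptor Boc, 31.9 against 169 CPM (0.188, 0.167 to 0.211). Both depended on nuclei over the doublet threshold, without which Boc stood at 4.27 CPM in Sertoli-like nuclei, a ratio of 0.0257 (0.0173 to 0.0368), and Osr1 at a ratio of 0.0328 (0.000822 to 0.187). The median log2 ratio of the list was -0.23, beside 0.09 for all genes.

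Between the interstitial clusters and Leydig-like nuclei, 9 of 26 list genes were called higher in the former and 2 in the latter, where the shares of all 15860 genes were 16.5% and 13.1%. Among the largest ratios were Evc, a gene of the ciliary base (3.68, 2.74 to 5.04, and 6.43 without nuclei over the threshold), and Scube3, a secreted release factor (3.56, 2.01 to 6.88). Leydig-like nuclei were higher in the co-receptor Cdon, 1052 against 257 CPM, an interstitial ratio of 0.245 (0.237 to 0.253), and in Shh. Prkaca, the catalytic subunit of protein kinase A, followed at 0.634. The list's median log2 ratio was 0.50, and -0.01 for all genes. Progenitor-like over contractile-like, 0 of 25 were called higher and 2 lower, where the shares of all 14094 genes were 4.7% and 3.92%. The 2 were the release factors Scube2 (0.224) and Scube3 (0.297), with Mycn next at 0.603. Among the highest were Stk36 (1.49) and Evc2 (1.17), neither of them past 2-fold.

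Shh, a ligand known for the gut, limb and neural tube, was seen in Leydig-like nuclei at a low level. There were 52 UMIs in 43 of the 794 Leydig-like nuclei, 5.42% of them (3.95% to 7.23%), with at most 4 in a nucleus. This is 5.92 CPM (4.42 to 7.76), and the interstitial clusters held 2 UMIs, Sertoli-like nuclei 1 and germ-like nuclei 6. The Leydig-like level was 70.7 times the interstitial one, with a counting interval of 18.6 to 599 since it rests on 2 UMIs. Of the 43 nuclei, 34 were not over the doublet threshold. No peak of the file lay within 1 kb of the Shh start, so its accessibility is not described.

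Over the 10 classes of at least 50 nuclei, genes of like pattern were ranked by Pearson's r of log2(CPM + 1), among 15191 genes. The points share 1 library, and the r are descriptions. Nearest to Dhh were Tmem184a (r = 0.983), the sodium-proton exchanger Slc9a2 (0.978) and the glutathione transferase Gstm2 (0.968). Nearest to Ptch1 were Rev3l, a subunit of a DNA polymerase of damage bypass (0.903), Arhgap20 (0.842) and the leptin receptor Lepr (0.838), and nearest to Gli1 the chemokine Cxcl12 (0.984) and the zinc finger gene Tshz2 (0.978). In nuclei not over the doublet threshold these 8 values ran from 0.579 to 0.877. Among the Hedgehog genes themselves r was 0.925 for Gli1 and Gli2, 0.871 for Gli3 and Gas1, 0.844 for Gli2 and Gas1 and 0.602 for Ptch1 and Gli1. The order depended on nuclei over the threshold, without which these values were 0.814, 0.558, 0.830 and 0.437.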

How the data were processed

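Nuclei of E14.5 mouse testes were profiled by 10x multiome, with 1 RNA and 1 ATAC library. The authors ran Cell Ranger ARC 2.0.1 (mm10), and the deposited values are raw counts: gene UMIs and transposase cuts at peaks for each barcode (122049390 UMIs and 38243814 cuts in all), and the counts of read pairs behind each of 58448458 unique fragments, 93.6% of them in barcodes of the matrix. The depth of a level is its UMI or fragment count, and intervals cover counting error only.

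Barcodes were kept with over 500 genes, over 250 and under 25000 fragments at peaks, over 20% of fragments at peaks, and under 10% mitochondrial, 10% ribosomal and 0.5% haemoglobin UMIs. Doublets were scored with Scrublet (scanpy 1.11.5) without leaving out the Hedgehog genes. The top 6.13%, 470 barcodes, were removed, while 1345 lay over its automatic threshold. Clusters were made in R 4.3.3 with Seurat 5.3.0 by weighted nearest neighbours (30 components, 2000 variable genes) at resolution 0.3. Markers of 12 of 14 classes with at least 20 UMIs each could name a cluster, a minimum set after the data were seen. UMIs were summed by class and divided by the class total. Genes were called at 2-fold with at least 20 UMIs over both classes. Named were all 9 members, the 3 list genes most unequal in each direction, the 3 genes nearest in pattern to Dhh, Ptch1 and Gli1 over at least 100 UMIs, and the most unequal peak near each member with at least 50 fragments in classes of at least 300 nuclei. Some genes that this rule names are not reported here. The ratio and its interval were tested on simulated data. Members and lists were chosen with earlier results of these data known. Promoter fragments were counted within 1 kb of the starts given in the deposited gene list, for all 9 genes. Promoter sequences, their base composition and their motif search were taken from RefSeq windows, for 8 of the 9 genes.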

Additional observations from a re-analysis of the deposited data

How the results depend on the processing

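Other settings were run for 5 results, and none of the values counted changed direction. Of 47 values, 25 lay inside the counting interval of the reported one and 22 outside it. The counting error of the other setting was not weighed in this, and the value after subtracting the germ-like level has no interval. The Dhh promoter ratio, Sertoli-like over interstitial (3.66), ran from 3.09 to 4.98 over 9 settings. The Dhh level ratio (10.9, 8.78 to 13.7) was lower with clusters from ATAC alone (8.62, 6.94 to 10.8), with intervals that overlap. The Ptch1 level ratio, interstitial over Sertoli-like (2.94), was 2.48 with no doublet removal, 3.84 with the automatic doublet threshold before clustering, 2.81 with clusters from RNA alone, 3.21 from ATAC alone, 3.08 at resolution 0.6, 3.72 with a marker gate in place of clusters (39 Sertoli-like nuclei) and 3.63 in the same classes without nuclei over the threshold. The Gli1 level ratio, interstitial over Leydig-like (3.82), was in the same order 3.24 and 6.55, then 3.14 with stricter minimums, 2.997 from ATAC alone, 7.15 with the gate, 8.69 after subtracting the germ-like level and 6.68 without nuclei over the threshold. Ptch1 with over without a Gli1 UMI (1.24) was 1.20 with the automatic threshold, 1.18 with stricter minimums, 1.16 from ATAC alone, 1.20 at resolution 0.6, 1.17 with the gate, 1.13 (1.06 to 1.21) after thinning, and 1.07 (0.989 to 1.17) in the progenitor-like and cycling progenitor-like clusters at resolution 0.6, thinned and not over the threshold, an interval that includes 1. The interstitial class itself changed with the setting. Its 3275 nuclei became 2287 with the automatic threshold before clustering and 1541 with the gate. At resolution 0.6 it held 2251 progenitor-like nuclei, without the contractile-like cluster. The cause of the shifts in these values was not tested. Settings without nuclei over the threshold in the reported classes, and the last one, were chosen after seeing the data. Subtracting the germ-like level gave no value for Dhh (4.23 against 5.56 CPM) or for Ptch1 in Sertoli-like nuclei (335 against 413 CPM). With the gate, the 39 Sertoli-like nuclei held 0 Dhh promoter fragments, which makes the ratio 0 with an interval up to 6.23. This setting was left out of the 47 values because of its low count. RNA and ATAC were read from the same nuclei, but peaks were not linked to RNA nucleus by nucleus here. No groups of samples are compared. With 1 library of each kind, depth limits the small classes, and spread between animals cannot be estimated.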
